A study of Mus musculus with 12 samples.

Results

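The unfolded protein response is the set of reactions by which a cell adjusts to proteins that fail to fold in the endoplasmic reticulum (ER). The genes described here are 32 of the 52636 gene identifiers in the count table, found by their symbols in GENCODE M21, the mouse gene annotation. They encode the 3 sensors of ER stress, transcription factors downstream of them, ER chaperones and protein disulfide isomerases, genes of ER-associated degradation (ERAD), the translocon subunit Sec61b and targets of the factors ATF4 and CHOP.

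All 12 libraries came from female FVB/NJ mice that carried a mammary tumor, grown from a piece of the transplanted MMTV-HER2 founder line Fo5, in which the mouse mammary tumor virus promoter drives a human HER2 transgene. The tumors derived from 1 founder line, and the host mice were wild type, with their own T cells. The 4 groups of 3 libraries each were TDB tumor, vehicle tumor, TDB liver and vehicle liver. TDB mice received a single intravenous dose, 5 mg/kg, of an antibody with 2 different arms, a T cell dependent bispecific (TDB, labelled 4D5-2C11), which binds HER2 with one arm and CD3 on T cells with the other, and vehicle mice received the histidine and sucrose buffer alone. Tissues were taken 24 h later and bulk RNA of dissociated tissue was sequenced. The labels give no age and do not say whether liver and tumor libraries of the same number came from 1 mouse.

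The ER senses misfolded proteins through 3 membrane proteins. IRE1 (Ern1) splices the mRNA of Xbp1 so that it encodes an active transcription factor, PERK (Eif2ak3) phosphorylates eIF2alpha, which slows protein synthesis while ATF4 is still made, and ATF6 (Atf6) travels to the Golgi, where its cleavage releases another transcription factor. ATF6 and XBP1 switch on chaperone and ERAD genes, and ATF4 and CHOP (Ddit3) switch on genes of amino acid supply and of cell death. Hepatocytes secrete much protein and keep ER chaperone genes active at rest. Gene counts, as used here, do not show splicing of Xbp1, phosphorylation or cleavage of ATF6.

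The best known DNA elements of the response lie close to the start sites of its targets. RefSeq promoter windows of 300 bases on the GRCm38.p6 assembly, from 250 bases before to 50 after the start, were matched by symbol for 28 of the 32 genes. The ER stress response element (ERSE: CCAAT and CCACG with 9 bases between them, searched on both strands as were all elements) stood in 9 of these 28 windows, against 0.119% of 32851 mouse windows: those of Hspa5, Hsp90b1, Dnajc3, Pdia6, Calr, Canx, Creld2, Derl3 and Syvn1. ERSE-II (ATTGG and CCACG with 1 base between them) stood in 2, Dnajb11 and Herpud1, against 0.0365% of all windows. The element bound by C/EBP and ATF factors (CARE, TGATGNAA) stood in 4, Herpud1, Trib3, Asns and Chac1, against 3.97% of all. The XBP1 element searched as TGACGTGG stood in 0 of the 28, against 0.676% of all. Motif matches are a description of letters and show no binding. The 32 genes were listed as genes of this response, so the shares beside all windows are no test.

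6 windows are printed 5′ to 3′ on the strand of the gene, with the fixed bases of each match in capitals, because, of the genes with an element, the first 5 had the smallest adjusted p in tumor and Derl3 had the largest fold change in liver. Chac1 (chr2:119350992-119351291, plus strand) fell most in the tumor and has a CARE on the reverse strand. Creld2 (chr15:88819396-88819695, plus strand) and Derl3 (chr10:75893148-75893447, plus strand) have a reverse ERSE, and Dnajc3 (chr14:118937682-118937981, plus strand) a forward one. Herpud1 (chr8:94386179-94386478, plus strand) has both a CARE and an ERSE-II, and Dnajb11 (chr16:22857595-22857894, plus strand) an ERSE-II just after its start. Derl3 was added after its values were seen.
Chac1: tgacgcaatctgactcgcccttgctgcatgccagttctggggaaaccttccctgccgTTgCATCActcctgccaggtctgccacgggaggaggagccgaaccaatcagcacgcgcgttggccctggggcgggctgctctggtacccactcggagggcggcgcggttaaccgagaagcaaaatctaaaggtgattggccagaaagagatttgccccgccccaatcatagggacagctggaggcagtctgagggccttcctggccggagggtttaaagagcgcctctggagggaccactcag
Creld2: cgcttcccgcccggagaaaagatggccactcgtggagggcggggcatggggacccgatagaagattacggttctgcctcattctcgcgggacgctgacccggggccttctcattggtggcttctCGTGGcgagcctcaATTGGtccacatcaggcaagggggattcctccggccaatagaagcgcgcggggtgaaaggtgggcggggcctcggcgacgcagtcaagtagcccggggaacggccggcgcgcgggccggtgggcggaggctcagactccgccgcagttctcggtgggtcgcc
Herpud1: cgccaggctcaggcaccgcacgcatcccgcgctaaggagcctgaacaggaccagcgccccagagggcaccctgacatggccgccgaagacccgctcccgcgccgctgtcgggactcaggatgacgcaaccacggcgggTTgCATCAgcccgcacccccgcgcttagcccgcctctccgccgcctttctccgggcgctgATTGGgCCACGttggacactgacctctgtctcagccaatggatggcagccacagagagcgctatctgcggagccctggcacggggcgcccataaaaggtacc
Dnajb11: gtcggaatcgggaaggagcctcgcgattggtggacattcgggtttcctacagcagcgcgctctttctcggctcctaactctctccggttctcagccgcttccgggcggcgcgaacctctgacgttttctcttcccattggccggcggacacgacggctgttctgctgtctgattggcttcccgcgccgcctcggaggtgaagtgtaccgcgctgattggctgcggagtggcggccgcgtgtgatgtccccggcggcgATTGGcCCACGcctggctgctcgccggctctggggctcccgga
Dnajc3: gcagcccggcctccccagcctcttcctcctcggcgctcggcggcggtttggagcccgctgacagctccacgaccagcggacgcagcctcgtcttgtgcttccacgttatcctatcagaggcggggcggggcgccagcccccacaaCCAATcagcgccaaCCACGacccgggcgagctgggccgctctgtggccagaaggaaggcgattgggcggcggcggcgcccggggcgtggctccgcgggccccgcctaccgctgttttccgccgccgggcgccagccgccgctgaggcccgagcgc
Derl3: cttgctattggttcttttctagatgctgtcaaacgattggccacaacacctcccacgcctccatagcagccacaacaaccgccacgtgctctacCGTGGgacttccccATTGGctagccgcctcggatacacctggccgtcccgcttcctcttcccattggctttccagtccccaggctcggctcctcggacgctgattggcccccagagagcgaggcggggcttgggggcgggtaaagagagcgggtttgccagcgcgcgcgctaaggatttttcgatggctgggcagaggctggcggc

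In 6 other genes the ERSE match itself is shown in the same style, with its first base counted from the start site. Hspa5 carried the match at position -65, Syvn1 at -44, Canx at -145, Pdia6 at -98 and Calr, on the reverse strand, at -162. Hsp90b1 carried both a forward match at -212 and a reverse one at -107.
Hspa5, forward: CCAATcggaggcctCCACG
Calr, reverse: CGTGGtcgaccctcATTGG
Syvn1, forward: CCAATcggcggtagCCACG
Canx, forward: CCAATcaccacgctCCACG
Pdia6, forward: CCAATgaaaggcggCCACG
Hsp90b1, forward: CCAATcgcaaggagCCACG
Hsp90b1, reverse: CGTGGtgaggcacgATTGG

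Total counts were 20796764 to 29396324 in tumor libraries and 18460159 to 25542980 in liver libraries. The spread between libraries of 1 group, as edgeR's common biological coefficient of variation, was 13.0% in tumor and 32.3% in liver. The labels held against tissue markers: 12 mammary epithelium genes summed to 26618 to 32362 counts scaled to library size (CPM) in tumor libraries and 376 to 739.6 CPM in liver libraries, and 12 hepatocyte genes to 33.7 to 66.8 CPM in tumor libraries and 116854 to 191236 CPM in liver libraries. Levels below are CPM with TMM library factors computed within a tissue. The liver library TDB 3 stood apart from the other 2 of its group. Its deviation from the TDB liver mean, across genes, had a Spearman correlation of 0.63 with exonic length. That correlation was -0.59 and -0.47 in TDB 1 and TDB 2, and 0.13, -0.45 and 0.47 in vehicle 1, 2 and 3 from their own mean. In TDB 3 2.05% of counts were mitochondrial, against 0.847% to 1.28% in the other liver libraries. Liver counts, and the genes named below for leaving it out, are also given without it.

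In tumors, 8 of the 32 genes rose after TDB, 2 fell and 22 did not pass the test, which was edgeR's quasi-likelihood test at a Benjamini-Hochberg adjusted p under 0.05 over 15454 genes. The genes that rose were the sensors Ern1 and Atf6, the chaperone partners Dnajb11 and Sdf2l1, the disulfide isomerase Pdia3, the stress proteins Manf and Creld2 and the ERAD gene Edem1, by 0.29 (Dnajb11) to 0.59 (Edem1) on the log2 scale. Chac1, an enzyme that degrades glutathione and a target of ATF4, fell to 0.44 of its vehicle level, and Herpud1, an ERAD membrane protein, to 0.83. Over all genes tested, 15.8% were called higher and 13.1% lower, beside 25% and 6.25% of these 32 genes. With only 8 and 2 genes called, a few genes make up the gap to that background, and it was not tested. The median log2 fold change was 0.16 over the 32 genes and -0.02 over all genes tested. TDB 1 was the highest tumor library for 16 of the 32 genes, and vehicle 1 the lowest for 17. Their median log2 deviation from the tumor mean was 0.15 in TDB 1, against 0.02 and 0.01 in TDB 2 and 3. Without TDB 1 the median log2 fold change was 0.10, and without any other single library it was 0.13 to 0.19. With upper quartile scaling the counts were 7 higher and 4 lower, against 13.4% and 19.4% of all genes, and with total counts, an alternative chosen after seeing the data, 5 higher and 4 lower, against 12% and 25.8%. In bulk RNA, fewer cells of a type and less RNA per cell cannot be told apart.

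**Figure D1:**
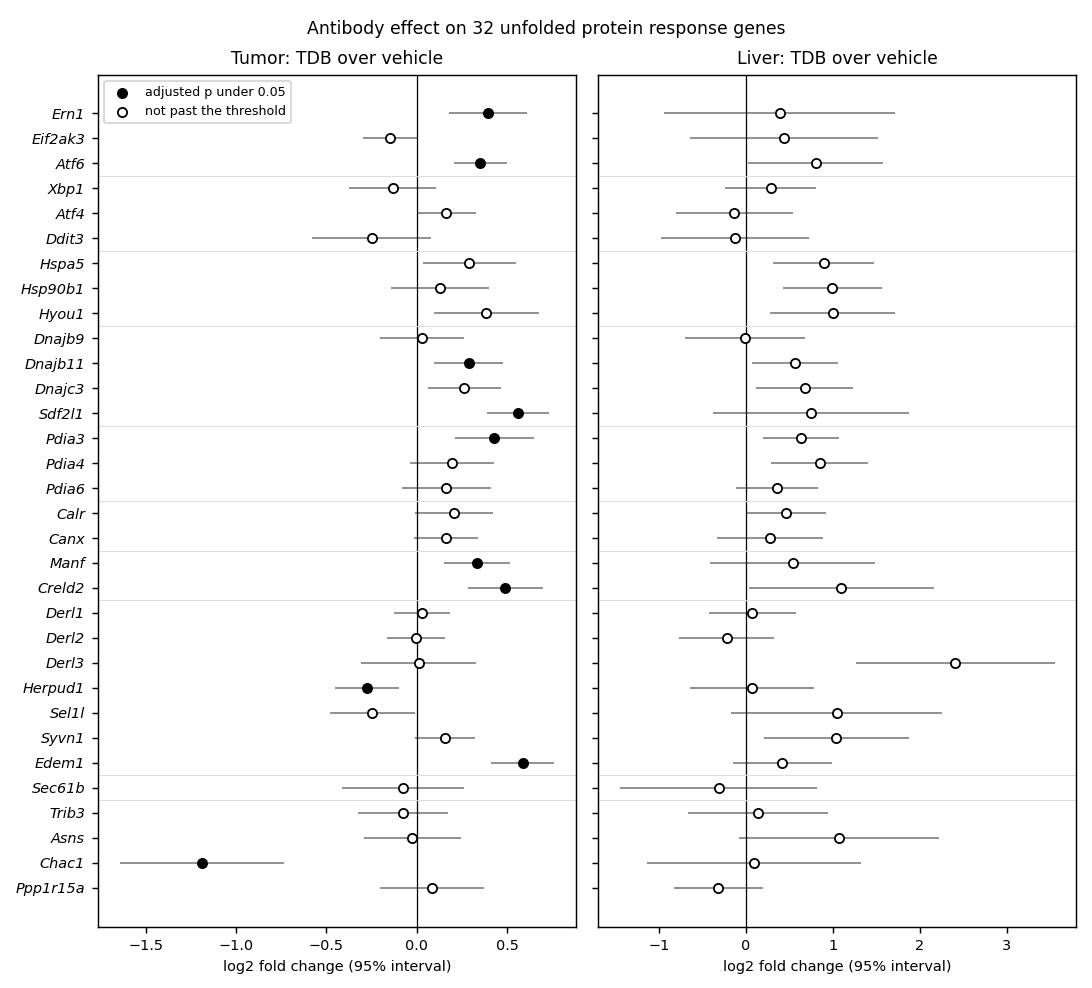
Log2 fold change of TDB over vehicle (x axis) for each of the 32 genes (rows, by role) in tumor and in liver, with 95% confidence intervals from edgeR's quasi-likelihood fits. Filled points passed the adjusted threshold of 0.05. In tumor 8 genes sit above zero and 2 below with filled points, and in liver none is filled although 26 of 32 points lie above zero and Derl3 stands farthest at 2.40.

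Among the sensors, Ern1 (ENSMUSG00000020715, chromosome 11, 106394650 to 106487852) had 38.0, 43.0 and 36.5 CPM in TDB tumors, against 27.2, 31.97 and 30.2 CPM in vehicle tumors. All 3 TDB values lay above all vehicle values. The log2 fold change was 0.40 (adjusted p = 0.014, SE 0.10). Atf6 (ENSMUSG00000026663, chromosome 1, 170704674 to 170867771) had 89.7, 89.5 and 94.9 CPM in TDB tumors, against 69.7, 70.9 and 74.0 CPM in vehicle tumors. The groups did not overlap and TDB 3 was the highest library. Its log2 fold change was 0.35 (adjusted p = 0.0039, SE 0.07). Eif2ak3, which encodes PERK, went the other way and did not pass. It had 76.2, 71.3 and 69.6 CPM in TDB tumors, against 77.5, 80.4 and 82.1 CPM in vehicle tumors. The TDB values were all lower than the vehicle values, by a log2 fold change of -0.15 (adjusted p = 0.14). Eif2ak3 passed as lower with upper quartile scaling and with total counts (lowest adjusted p = 0.012, edgeR's quasi-likelihood test). Those scalings called 19.4% and 25.8% of all genes lower. Without strand information, reads of Eif2ak3 and of Gm43292, which overlaps 485 of its exonic bases on the opposite strand, cannot be told apart.

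Of the transcription factors, none passed the test in tumor. Xbp1, the substrate of IRE1 and by length-scaled level the most abundant of the 32 genes in vehicle tumors (779 CPM per kb of exon in TDB tumors, 853 in vehicle tumors), had 2427, 2583 and 2578 CPM in TDB tumors, against 3037, 2824 and 2456 CPM in vehicle tumors. The groups overlapped, with vehicle 1 highest, and the log2 fold change was -0.13 (95% interval -0.37 to 0.11, adjusted p = 0.39). Atf4, the effector of PERK, had 227, 247 and 219.6 CPM in TDB tumors, against 215, 202 and 202 CPM in vehicle tumors. The TDB libraries were all above the vehicle libraries, yet the log2 fold change of 0.16 did not pass (adjusted p = 0.12). Ddit3, which encodes CHOP, had 26.4, 25.7 and 24.4 CPM in TDB tumors, against 28.9, 24.5 and 37.5 CPM in vehicle tumors. Vehicle 3 stood above the other 5 libraries, and the log2 fold change was -0.25 (95% interval -0.58 to 0.08, adjusted p = 0.23).

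The major ER chaperones did not pass edgeR's quasi-likelihood test in tumor. Hspa5, which encodes BiP, the Hsp70 of the ER that also binds the sensors, had 3765, 3163 and 3184 CPM in TDB tumors, against 2490.5, 2869 and 2901 CPM in vehicle tumors. The groups did not overlap, but TDB 1 alone stood well above the rest and the log2 fold change was 0.29 (adjusted p = 0.087). Hspa5 passed with DESeq2 (adjusted p = 0.024) and without the filter on low counts (adjusted p = 0.049). Hyou1, a nucleotide exchange factor of BiP, had a log2 fold change of 0.39 (adjusted p = 0.053) and passed without vehicle 2 (adjusted p = 0.022) or without TDB 2 (adjusted p = 0.048), with DESeq2 (adjusted p = 0.015), with limma-voom (adjusted p = 0.049) and without the filter (adjusted p = 0.018). Hsp90b1, the ER Hsp90, had a log2 fold change of 0.13 (adjusted p = 0.45). Among the J proteins, which deliver clients to BiP, and their partners, 2 of 4 rose. Sdf2l1 (ENSMUSG00000022769, chromosome 16, 17130138 to 17132383), which keeps clients soluble with such J proteins, had 122, 117 and 104 CPM in TDB tumors, against 75.7, 80.0 and 77.1 CPM in vehicle tumors. The lowest TDB library was well above the highest vehicle library, with a log2 fold change of 0.56 (adjusted p = 0.00077, SE 0.08). Dnajb11, with the ERSE-II shown above, had 195, 173 and 168 CPM in TDB tumors, against 139, 159 and 140.2 CPM in vehicle tumors. The groups came close at TDB 3 and vehicle 2, and the log2 fold change was 0.29 (adjusted p = 0.033, SE 0.09). Dnajc3, a BiP partner that also holds back PERK, had 0.26 (adjusted p = 0.055) and passed without vehicle 2 (adjusted p = 0.032), with DESeq2 (adjusted p = 0.040) and without the filter (adjusted p = 0.033), and Dnajb9, a J protein that acts on IRE1, had 0.03 (adjusted p = 0.86).

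Pdia3, the disulfide isomerase that works with calreticulin and calnexin on glycoproteins, rose in tumor. Pdia3 (ENSMUSG00000027248, chromosome 2, 121413775 to 121438687) had 1963, 1798 and 1639 CPM in TDB tumors, against 1298, 1341 and 1372 CPM in vehicle tumors. Every TDB library was above every vehicle library, and the log2 fold change was 0.43 (adjusted p = 0.0099, SE 0.10). Its relatives Pdia4 and Pdia6 had log2 fold changes of 0.20 (adjusted p = 0.19) and 0.16 (adjusted p = 0.29). The lectin chaperones Calr and Canx had 0.21 (adjusted p = 0.14) and 0.16 (adjusted p = 0.16), and neither passed, although in both the TDB libraries were all above the vehicle libraries.

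Both stress proteins of the ER lumen rose in tumor. Creld2 (ENSMUSG00000023272, chromosome 15, 88819646 to 88826683), with the reverse ERSE shown above, had 167, 140.2 and 141 CPM in TDB tumors, against 101, 116 and 101 CPM in vehicle tumors. TDB 1 was the highest library and no vehicle library reached the TDB range, with a log2 fold change of 0.49 (adjusted p = 0.0042, SE 0.09). Manf, a secreted protein of the stressed ER, had 335, 300.5 and 289 CPM in TDB tumors, against 233, 254 and 246 CPM in vehicle tumors. The groups did not overlap, and the log2 fold change was 0.33 (adjusted p = 0.013, SE 0.08).

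Of the 7 ERAD genes 1 rose and 1 fell in tumor. Edem1 (ENSMUSG00000030104, chromosome 6, 108828641 to 108859356), a lectin that directs misfolded glycoproteins to degradation, had 279, 256 and 246 CPM in TDB tumors, against 162, 176 and 182 CPM in vehicle tumors. The lowest TDB library stood far above the highest vehicle library, and the log2 fold change of 0.59 (adjusted p = 0.00065, SE 0.08) was the largest rise among the 32 genes. Herpud1 (ENSMUSG00000031770, chromosome 8, 94386438 to 94395377), which organises the ubiquitin ligase complex of ERAD and whose window holds both elements printed above, had 118, 114 and 110.4 CPM in TDB tumors, against 150.0, 125 and 139 CPM in vehicle tumors. The TDB libraries were all below the vehicle libraries, by a log2 fold change of -0.28 (adjusted p = 0.029, SE 0.08). Sel1l and Syvn1, the adaptor and the ligase of that complex, had log2 fold changes of -0.25 (adjusted p = 0.11) and 0.15 (adjusted p = 0.15). Sel1l passed as lower with upper quartile scaling and with total counts (lowest adjusted p = 0.023, edgeR's quasi-likelihood test). The derlins Derl1, Derl2 and Derl3, membrane proteins of the exit route, had 0.03, -0.01 and 0.01 (adjusted p = 0.78, 0.96 and 0.96). Derl3 had 38.3, 32.2 and 32.5 CPM in TDB tumors, against 28.5, 32.4 and 41.3 CPM in vehicle tumors. The groups overlapped throughout, with a 95% interval of -0.31 to 0.33 for the log2 fold change.

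Of the 4 targets of ATF4 and CHOP, 1 fell and 0 rose in tumor. Chac1 (ENSMUSG00000027313, chromosome 2, 119351229 to 119354381), whose CARE is printed above, had 1.65, 1.65 and 2.05 CPM in TDB tumors, against 4.08, 4.47 and 3.66 CPM in vehicle tumors. It was a low gene in all libraries, and the highest TDB library was below the lowest vehicle library, with a log2 fold change of -1.19 (adjusted p = 0.0024, SE 0.20). Trib3, a pseudokinase that restrains ATF4 and CHOP, Asns, which makes asparagine, and Ppp1r15a, the subunit that directs a phosphatase to eIF2alpha, had log2 fold changes of -0.08, -0.02 and 0.09 (adjusted p = 0.65, 0.90 and 0.66). The translocon subunit Sec61b had -0.08 (adjusted p = 0.74), and 17.4% of its transcript words of 50 bases also occur in other genes, so that its counts are uncertain.

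**Figure D2:**
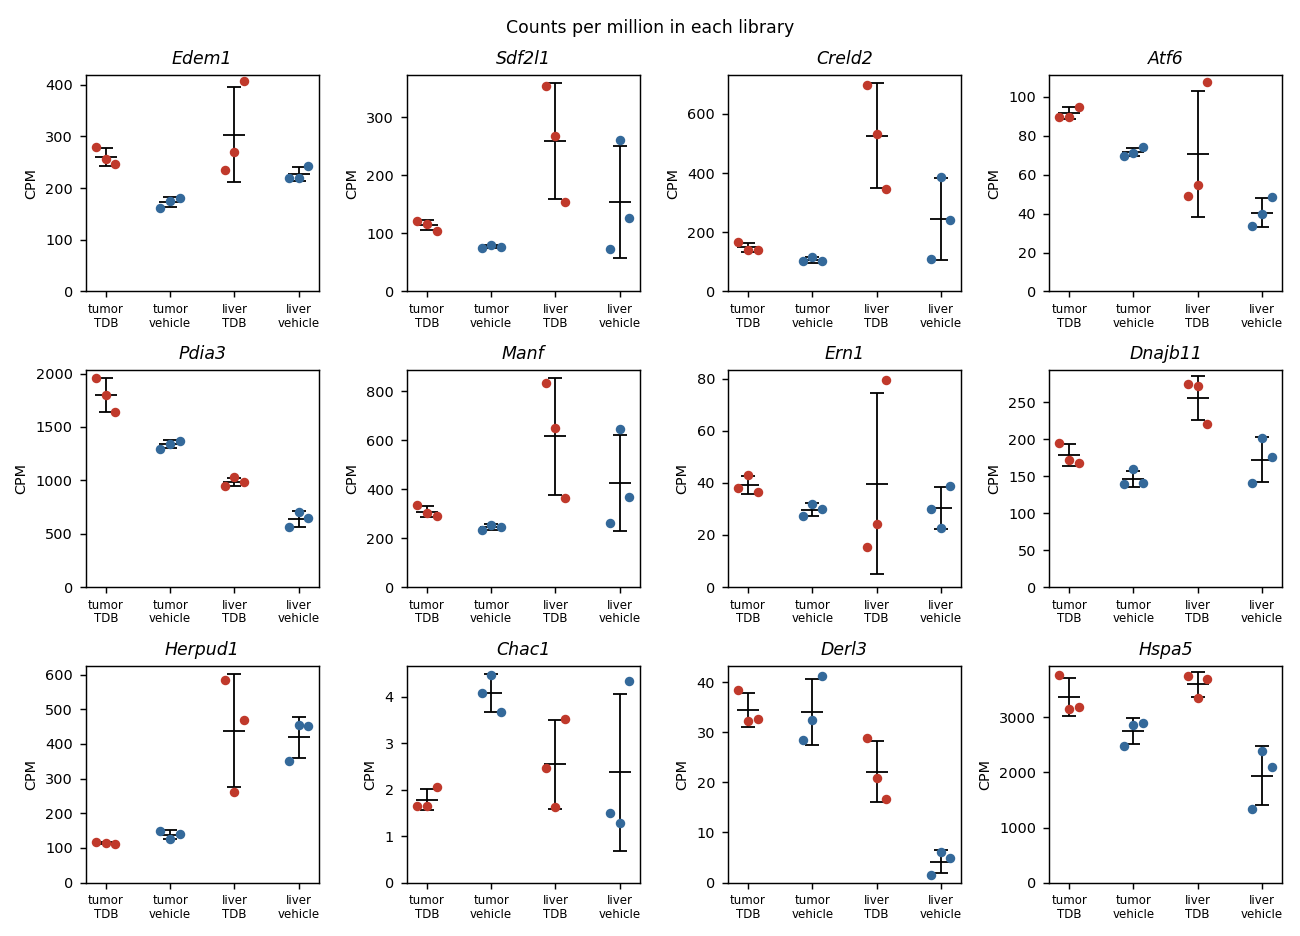
CPM (y axis) of 12 genes, one panel each, in the 3 libraries of TDB tumor, vehicle tumor, TDB liver and vehicle liver (x axis). Points are libraries, and lines are group means with SD. For Edem1, Sdf2l1 and Chac1 the tumor groups are apart, and for Derl3 only the liver groups are.

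More genes had separate groups than passed the test. In tumor the TDB libraries were all above the vehicle libraries for 15 of the 32 genes (46.9%), against 23% of all genes tested, and all below for 4 (12.5%), against 23.1%. The genes below were Eif2ak3, Herpud1, Sel1l and Chac1. At an unadjusted p under 0.05 there were 14 genes, 11 of them higher in TDB tumors, against 40.6% of all genes, and 22 of 32 log2 fold changes were positive, against 47.8% of all. The 22 genes that did not pass had log2 fold changes of -0.25 (Ddit3) to 0.39 (Hyou1), and their 95% intervals lay between -0.58 and 0.68. The 32 genes took 1.65% to 1.87% of all counts in TDB tumors and 1.65% to 1.78% in vehicle tumors.

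6 of the 10 tumor calls (Atf6, Sdf2l1, Pdia3, Creld2, Edem1 and Chac1) held when any 1 tumor library was left out. Ern1 did not pass without TDB 2 (adjusted p = 0.062), nor Manf without TDB 1 (adjusted p = 0.059). Dnajb11 did not pass without vehicle 1, vehicle 3, TDB 1 or TDB 2 (adjusted p = 0.062 to 0.13), and Herpud1 did not without vehicle 1 or any TDB library (adjusted p = 0.062 to 0.098). Ern1, Manf and Dnajb11 also did not pass with total counts or in either fit of the deposited FPKM values. Dnajb11 did not pass with upper quartile scaling either. In a fit of all 12 libraries, which shares 1 estimate of spread with liver, 0 of the 10 passed. Cell type markers also passed in the same tumors. Of 12 T cell markers 11 rose, summing to 20.2 to 33.0 CPM in TDB tumors and 3.52 to 6.37 CPM in vehicle tumors. Of 12 macrophage markers 11 were tested, of which 7 rose and 1 fell. The 12 summed to 624 to 711 CPM in TDB tumors and 267 to 394 CPM in vehicle tumors. Plasma cells, which carry much ER, had 7 of 11 markers tested, of which 5 were higher and 2 lower, with a median log2 fold change of 1.48 and a highest of 5.97. Their sum was 355 to 401 CPM in TDB tumors and 404 to 459.8 CPM in vehicle tumors, and so went against the 5 markers that were higher. Of 8 B cell markers 1 was tested and it was higher. The B cell markers summed to 4.49 to 4.73 CPM in TDB tumors and 0.813 to 1.94 CPM in vehicle tumors. Of 12 mammary epithelium markers 11 were tested, of which 0 rose and 2 fell. The 12 summed to 30429 to 32362 CPM in TDB tumors and 26618 to 30713 CPM in vehicle tumors. Of 12 fibroblast and pericyte markers 0 rose and 2 fell, with a median log2 fold change of -0.54, and of 10 endothelial markers 0 rose and 2 fell, with a median of -0.27. Of 12 immediate early and dissociation genes 3 rose and 1 fell, with a median of 0.21. The part of these cells in the results was not tested.

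In liver, none of the 32 genes passed edgeR's quasi-likelihood test after adjustment by Benjamini-Hochberg: 0 rose and 0 fell, with 13657 genes tested, against a background of 0.513% higher and 0.022% lower. The smallest adjusted p was 0.13, for Derl3. DESeq2 called 2 genes higher, Hsp90b1 and Derl3, and limma-voom 0. At an unadjusted p under 0.05, 12 of the 32 genes (37.5%) were higher in TDB livers and 0 lower, against 8.09% of all genes in either direction: Atf6, Hspa5, Hsp90b1, Hyou1, Dnajb11, Dnajc3, Pdia3, Pdia4, Calr, Creld2, Derl3 and Syvn1. The log2 fold change was positive for 26 of 32 genes, against 54.2% of all genes, with a median of 0.45 over the 32 and 0.04 over all. TDB livers lay above vehicle livers without overlap for 11 genes (34.4%), against 9.11% of all genes, and below for 0, against 5.46%. Vehicle 1 was the lowest liver library for 17 of the 32 genes. Their median log2 deviation from the liver mean was -0.46 in vehicle 1, against -0.11 and -0.17 in vehicle 2 and 3. The median log2 fold change of the 32 genes was 0.38 without vehicle 1, 0.50 without vehicle 2 and 0.59 without vehicle 3. Without TDB 3, 15 genes were higher and 0 lower at an unadjusted p under 0.05, against 10.3% of 13888 genes in either direction, and 25 of 32 log2 fold changes were positive, against 48.3% of genes. TDB livers 1 and 2 lay above all vehicle livers for 16 genes, against 14.9% of genes, and below for 0, against 11.6%.

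The major chaperones lay above their vehicle levels in TDB livers, although none passed. Hspa5 had 3750.4, 3349 and 3701 CPM in TDB livers, against 1343, 2384 and 2094 CPM in vehicle livers. TDB libraries were close together and all above the vehicle libraries, of which vehicle 1 was the lowest, and the log2 fold change was 0.89 (adjusted p = 0.30, SE 0.25). Hsp90b1 had 1576, 1752 and 2277 CPM in TDB livers, against 767, 889 and 1159.6 CPM in vehicle livers. The groups did not overlap, with a log2 fold change of 0.99 (adjusted p = 0.21, SE 0.25), and 9.75% of its transcript words of 50 bases also occur in other genes. Hyou1, Pdia4, Pdia3 and Dnajb11 had log2 fold changes of 1.00, 0.85, 0.63 and 0.57 (adjusted p = 0.36, 0.30, 0.33 and 0.49), and their groups did not overlap either. The 32 genes took 1.49% to 1.73% of all counts in TDB livers and 0.768% to 1.01% in vehicle livers, and 59.2% of their counts in TDB livers came from Hspa5, Calr, Hsp90b1, Pdia3 and Manf.

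Derl3 had the largest fold change in liver, where it was a low gene. It had 28.7, 20.9 and 16.7 CPM in TDB livers, against 1.54, 6.10 and 4.87 CPM in vehicle livers. The lowest TDB library was above the highest vehicle library, and the log2 fold change was 2.40 (adjusted p = 0.13, SE 0.49, 95% interval 1.26 to 3.55). It passed in 5 of 16 alternatives, among them without TDB 3 (adjusted p = 0.038), and the adjusted p ran from 7.4e-05 to 0.42 over all of them. The ERAD ligase Syvn1 and its adaptor Sel1l each had a log2 fold change of 1.04 (adjusted p = 0.44 and 0.70). Edem1, called in tumor, had 234, 269 and 408 CPM in TDB livers, against 221, 219 and 243 CPM in vehicle livers. The groups overlapped, with TDB 3 far above the rest (log2 fold change 0.42, adjusted p = 0.77). Herpud1 had 584, 262 and 469 CPM in TDB livers, against 349.7, 456 and 451 CPM in vehicle livers, and its lowest and highest libraries were both TDB (log2 fold change 0.07, adjusted p = 0.96).

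For all 3 sensors the liver library TDB 3 was the highest, and none passed. Ern1 had 15.5, 24.1 and 79.7 CPM in TDB livers, against 29.8, 22.7 and 38.7 CPM in vehicle livers. TDB 3 was the highest library and TDB 1 the lowest, with a log2 fold change of 0.39 (adjusted p = 0.87, SE 0.57). Atf6 had 49.0, 54.9 and 108 CPM in TDB livers, against 33.4, 39.6 and 48.5 CPM in vehicle livers. The TDB livers were all higher, by a log2 fold change of 0.80 (adjusted p = 0.60, SE 0.34), with TDB 3 far above the rest. Eif2ak3 had 16.9, 17.8 and 47.2 CPM in TDB livers, against 17.8, 13.7 and 28.7 CPM in vehicle livers, where again TDB 3 stood alone (log2 fold change 0.44, adjusted p = 0.84).

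For all 3 transcription factors the liver library TDB 3 was instead the lowest, and none passed. Xbp1 had 582, 535 and 368 CPM in TDB livers, against 378, 445 and 398 CPM in vehicle livers, and TDB 3 was the lowest of all 6 (log2 fold change 0.28, adjusted p = 0.81). Atf4 had 223, 178 and 121 CPM in TDB livers, against 168, 247 and 157 CPM in vehicle livers (log2 fold change -0.14, adjusted p = 0.91). Ddit3 had 22.6, 17.2 and 9.52 CPM in TDB livers, against 13.9, 24.0 and 16.0 CPM in vehicle livers (log2 fold change -0.13, adjusted p = 0.93). For both, the groups overlapped and TDB 3 was the lowest library. Chac1 had 2.47, 1.62 and 3.53 CPM in TDB livers, against 1.49, 1.29 and 4.32 CPM in vehicle livers, again with overlap (log2 fold change 0.09, adjusted p = 0.97).

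Sdf2l1, Creld2 and Manf, all called in tumor, were spread widely in liver. Sdf2l1 had 354, 268 and 154 CPM in TDB livers, against 73.5, 262 and 127 CPM in vehicle livers (log2 fold change 0.75, adjusted p = 0.79). Creld2 had 699, 533 and 346 CPM in TDB livers, against 111, 387 and 240.1 CPM in vehicle livers (log2 fold change 1.10, adjusted p = 0.59). Manf had 835, 651 and 362 CPM in TDB livers, against 262, 643 and 368 CPM in vehicle livers (log2 fold change 0.54, adjusted p = 0.81). In all 3 genes TDB 1 was the highest and TDB 3 the lowest TDB library, and vehicle 2 was the highest vehicle library, so that the groups overlapped.

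**Figure D3:**
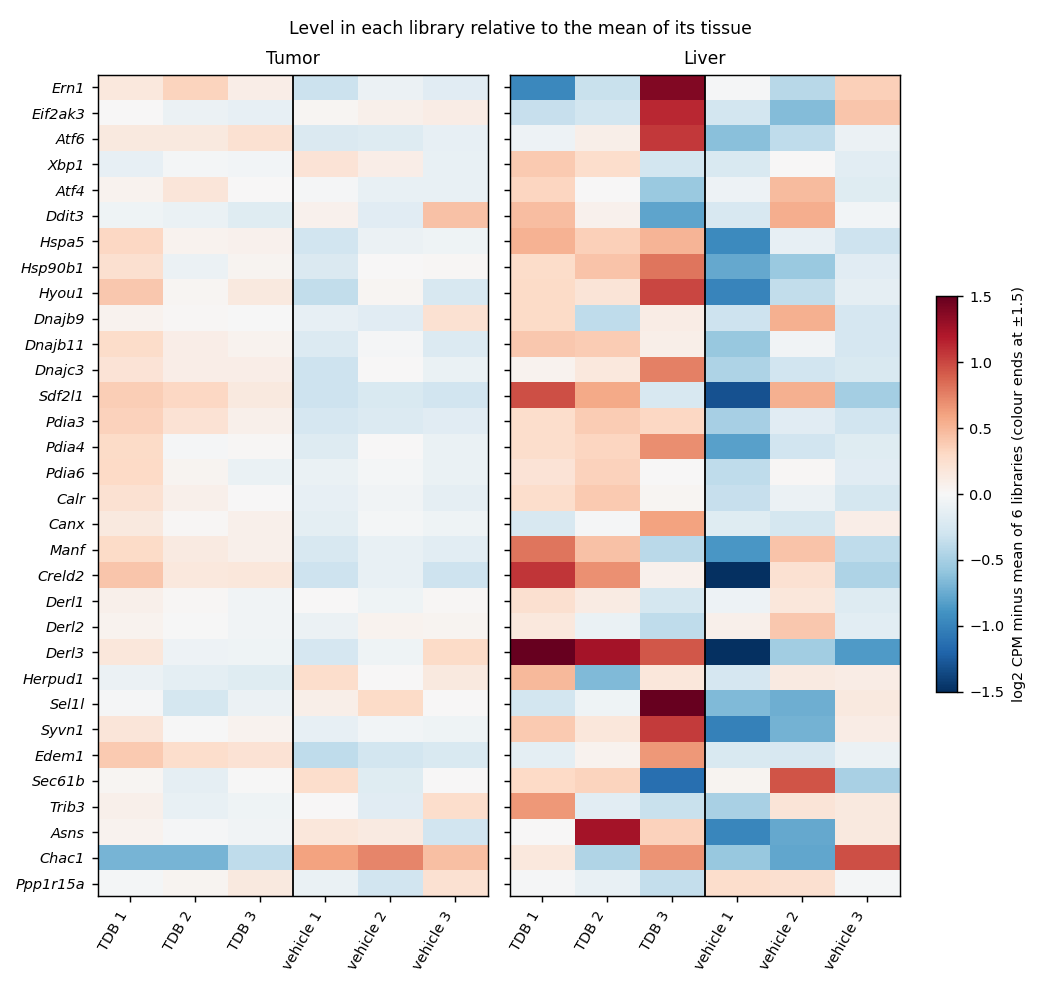
Log2 CPM of each of the 32 genes (rows, by role) in the 12 libraries (columns, TDB left of vehicle in each tissue), as the difference from the gene's mean over the 6 libraries of the tissue. In liver, TDB 3 differs from TDB 1 and 2 in both directions, and in tumor the shifts are small beside those in liver.

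Median exonic length differed between the genes that were highest and those that were lowest in the liver library TDB 3. It was the highest of the 6 liver libraries for 11 genes, Ern1, Eif2ak3, Atf6, Hsp90b1, Hyou1, Dnajc3, Pdia4, Canx, Sel1l, Syvn1 and Edem1, with a median exonic length of 6026 bp and a range of 2399 bp (Pdia4) to 9231 bp. It was the lowest for 7, Xbp1, Atf4, Ddit3, Derl1, Derl2, Sec61b and Ppp1r15a, with a median of 2937 bp and a range of 1271 bp to 8049 bp (Derl2), so that the ranges overlapped. Without TDB 3 the median log2 fold change of the 32 genes in liver was 0.40 and Derl3 was the 1 gene that passed. Leaving it out turned the log2 fold change of Ern1 to -0.61 and that of Eif2ak3 to -0.21, and lowered those of Atf6 to 0.37, Sel1l to 0.20 and Edem1 to 0.15. Hspa5 and Hsp90b1 had 0.88 and 0.83 without it (adjusted p = 0.22 and 0.18), Xbp1 0.47 (adjusted p = 0.39) and Creld2 1.34 (adjusted p = 0.27). Hyou1, Pdia3, Pdia4, Dnajb11 and Syvn1 had 0.71, 0.64, 0.71, 0.67 and 0.74, and Sdf2l1 and Manf 1.03 and 0.82, and none of them passed without it. The part of this library's length pattern in single liver values was not tested.

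**Figure D4:**
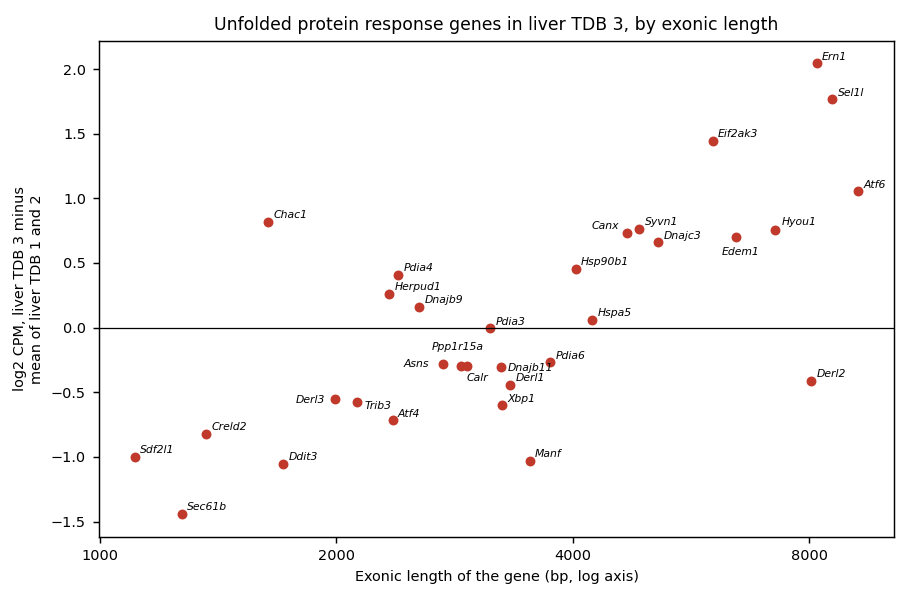
Log2 CPM of the liver library TDB 3 minus the mean of liver TDB 1 and 2 (y axis) against the exonic length of each of the 32 genes in bp (x axis, log scale). Points are genes; long genes such as Ern1 and Sel1l lie above zero and short ones such as Sec61b and Sdf2l1 below it.

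Marker lists of other cell types were read in the same liver libraries. Of 12 T cell markers 1 rose, summing to 42.5 to 46.2 CPM in TDB livers and 26.6 to 38.5 CPM in vehicle livers, and of 12 macrophage markers 1 rose, summing to 562 to 697 CPM in TDB livers and 414 to 511 CPM in vehicle livers. The 12 hepatocyte markers, of which 0 passed, summed to 116854 to 141677 CPM in TDB livers and 161732 to 191236 CPM in vehicle livers. Of 11 plasma cell markers 9 were tested and 0 passed. The 11 summed to 544 to 644.5 CPM in TDB livers and 551 to 711 CPM in vehicle livers. Derl3 is abundant in secretory cells such as those of the pancreas, and of 10 pancreatic acinar markers 9, among them Cpa1, Prss2, Pnlip and Cel, were at 0 counts in all liver libraries. The tenth, Cela2a, was at 0.767 to 1.77 CPM in TDB livers and 1.27 to 2.13 CPM in vehicle livers. Of 12 immediate early and dissociation genes 11 were tested and 1 was called higher. The 12 summed to 229.9 to 305 CPM in TDB livers and 147 to 183 CPM in vehicle livers. The part of these cell types in the liver values was not tested.

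The antibody effect in tumor was set against that in liver with an interaction term over all 12 libraries, treated as independent because the labels do not pair them by mouse. The fit shares 1 estimate of spread between the tissues, 24.6% as a coefficient of variation. Liver alone had 32.3% and tumor alone 13.0%, so the spread of liver values may be understated in it. Derl3 was the 1 gene of the 32 that passed: its effect was lower in tumor by a log2 difference of -2.44 (adjusted p = 0.027, SE 0.52). Of the 32 genes 0 were called higher and 1 lower, against 1.83% and 0.658% of 16557 genes. Derl3 did not pass when liver TDB 2 was left out (adjusted p = 0.053), nor without tumor TDB 1, 2 or 3 or tumor vehicle 2 or 3 (adjusted p = 0.062 to 0.089), and it held in 15 of 21 alternatives. The difference was negative for 27 of 32 genes, with a median of -0.32, against 60% and -0.12 over all genes. For the other genes called in tumor no difference between tissues passed: Edem1 had 0.13 (SE 0.27), Sdf2l1 -0.25 (SE 0.55) and Chac1 -1.32 (SE 0.59), with adjusted p = 0.95, 0.96 and 0.38. Chac1 passed without liver vehicle 3, with a log2 difference of -2.10 (adjusted p = 0.033).

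Resting levels were compared between vehicle tumors and vehicle livers, where 78.5% of all 15633 genes tested passed. With TMM factors 6 of the 32 genes (18.8%) were higher and 19 (59.4%) lower in vehicle tumors, against 40.8% and 37.8% of all genes. With total counts the split was 16 higher and 7 lower, against 67.1% and 17.7% of all genes, since that scaling moves the median of all genes by 1.33 on the log2 scale. Under both scalings Eif2ak3, Xbp1, Derl3, Sel1l, Trib3 and Asns were higher in vehicle tumors, and Dnajb9, Manf, Creld2, Derl1, Derl2, Herpud1 and Syvn1 lower. Eif2ak3 did not pass without liver vehicle 1 (adjusted p = 0.086). Asns had the largest difference, a log2 fold change of 5.60 (SE 0.30) with TMM factors. It had 71.5, 69.5 and 51.7 CPM in vehicle tumors, against 0.386, 0.448 and 0.845 CPM in vehicle livers, with library factors computed within each tissue. Derl3 stood 1.82 higher (adjusted p = 0.0022, SE 0.39) in vehicle tumors, and Herpud1 2.82 lower, a log2 fold change of -2.82 (adjusted p = 8e-07, SE 0.18).

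Levels per kb of exon place the genes beside each other within a tissue. In TDB tumors Hspa5 was the highest at 797 CPM per kb, before Xbp1 (779), Hsp90b1 (680.5) and Calr (675). In vehicle tumors Xbp1 led at 853, before Hspa5 (651), Hsp90b1 (622) and Calr (585). In TDB livers the order was Hspa5 (851), Calr (658), Hsp90b1 (463) and Creld2 (385), and in vehicle livers Calr (477), Hspa5 (459), Hsp90b1 (233) and Pdia3 (202). Chac1 was the lowest in tumor, at 1.09 in TDB tumors and 2.49 in vehicle tumors, and Asns the lowest in liver, at 0.432 in TDB livers and 0.205 in vehicle livers. Neighbours in these orders were not tested against each other.

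Other genes of the same pathways were read from 6 lists. Of all genes tested, 15.8% were called higher and 13.1% lower in tumor, and 0.513% and 0.022% in liver. In tumor, 5 of 34 other ER folding genes rose and 6 fell, with a median log2 fold change of -0.06. Rcn1, a calcium-binding protein of the ER, rose by 0.64 (adjusted p = 0.00058, SE 0.08), Ero1lb, an oxidase that feeds the disulfide isomerases, by 0.58 (adjusted p = 0.00063, SE 0.08) and Fkbp11, a prolyl isomerase, by 0.47 (adjusted p = 0.0016, SE 0.07). P4hb, the classic disulfide isomerase, had -0.08 (adjusted p = 0.66). Of 32 other ERAD genes 2 rose and 5 fell, with a median of 0.0067. Rnf139, an ER ubiquitin ligase, rose by 0.87 (adjusted p = 5.9e-05, SE 0.08), and Rnf5 and Svip fell, with -0.31 (adjusted p = 0.014) and -0.40 (adjusted p = 0.021). Of 29 translocation and signal peptidase genes 1 rose, Sec63, a J protein of the translocon, by 0.28 (adjusted p = 0.012, SE 0.06), and 0 fell, with a median of -0.0069. In liver 0 of 33, 0 of 32 and 0 of 30 genes of these lists passed, with medians of 0.05, 0.0032 and 0.12, and the genes named had log2 fold changes of 0.74 (Rcn1), 0.88 (Ero1lb), 0.35 (Fkbp11), 0.04 (P4hb), -0.19 (Rnf139), -0.18 (Rnf5), -0.38 (Svip) and 0.29 (Sec63). Rnf139 alone of the genes in the 6 lists differed between tissues, by 1.01 in tumor minus liver (adjusted p = 0.02).

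Of 42 other ATF4 pathway genes 12 rose in tumor and 6 fell, with a median of 0.09, against 15.8% and 13.1% of all genes called higher and lower. Wars, a tryptophanyl-tRNA synthetase that interferon also induces, had 480 ± 68.3 CPM in TDB tumors and 110.1 ± 11.7 CPM in vehicle tumors (SD, n = 3 each), a log2 fold change of 2.13 (adjusted p = 5.5e-06, SE 0.12). In liver Wars was the 1 gene of 37 that passed, with 82.9 ± 3.52 CPM in TDB livers and 33.1 ± 4.48 CPM in vehicle livers (SD, n = 3 each), a log2 fold change of 1.33 (adjusted p = 0.042, SE 0.20). Its tumor and liver effects did not differ past the threshold (adjusted p = 0.13). Atf3, a stress transcription factor, rose in tumor by 1.40 (adjusted p = 6.7e-06, SE 0.09), and Slc6a9, a glycine transporter, by 1.28 (adjusted p = 0.0009, SE 0.18). Among the 6 that fell were Pycr1, of proline synthesis, at -0.72 (adjusted p = 0.0029) and Slc7a5, an amino acid transporter, at -0.47 (adjusted p = 0.028), named after their values were seen. In liver their log2 fold changes were 0.61 (adjusted p = 0.82) and 0.30 (adjusted p = 0.85).

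Of 24 eIF2 kinases, phosphatase subunits and other sensor regulators 7 rose in tumor and 0 fell, with a median of 0.07, beside the same 15.8% and 13.1% of all genes. Eif2ak2, which encodes PKR, the eIF2alpha kinase activated by double-stranded RNA, had 145 ± 12.8 CPM in TDB tumors and 43.3 ± 2.27 CPM in vehicle tumors (SD, n = 3 each), a log2 fold change of 1.74 (adjusted p = 1.6e-06, SE 0.09). The other eIF2alpha kinases, Eif2ak1 (HRI) and Eif2ak4 (GCN2), had 0.02 (adjusted p = 0.85) and -0.04 (adjusted p = 0.77) in tumor. Bak1, a cell death protein that also binds IRE1, rose by 1.31 (adjusted p = 6.5e-06, SE 0.08), and Creb3, an ER-anchored relative of ATF6, by 0.65 (adjusted p = 0.00015, SE 0.07). Casp12, a caspase at the ER named here for its size after its values were seen, had 177 ± 20.5 CPM in TDB tumors and 34.8 ± 12.8 CPM in vehicle tumors (SD, n = 3 each), a rise of 2.34 (adjusted p = 0.0021, SE 0.28), and in liver 1.33 (adjusted p = 0.13). In liver 0 of 25 genes passed, with a median of 0.18, and Eif2ak2, Bak1, Creb3, Eif2ak1 and Eif2ak4 had 1.19, 1.10, 0.35, -0.03 and 0.37 (adjusted p = 0.23, 0.11, 0.82, 0.97 and 0.82). Creb3l3, the liver relative of ATF6, had -0.29 (adjusted p = 0.81) in liver and was too low to be tested in tumor. Of 27 cytosolic and mitochondrial chaperones 3 rose in tumor and 4 fell, with a median of -0.09, among them Trap1 at 0.42 (adjusted p = 0.0032), Bag3 at 0.28 (adjusted p = 0.018) and Dnajb1 at -0.29 (adjusted p = 0.0099). In liver 0 of 26 passed, with a median of 0.13, and Trap1, Bag3 and Dnajb1 had 0.03, 0.29 and -0.45.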

How the data were processed

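Bulk RNA of 12 libraries, 3 per group, was analysed. The authors deposited raw counts per Ensembl gene and FPKM values; GSNAP, limma and the build GRCm38 are named per the submitters' processing notes, without roles or versions, and the read counter, its annotation and its strand setting were in none of the sources used here. The deposited FPKM values were checked against the counts: they divide by median-of-ratios library factors and, for 85.0% of 14128 genes, by the genomic span rather than by exonic length, so they were used only as an alternative, on log2 with a pseudocount of 1 or 0.1.

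Counts were fitted in R 4.3.3 with edgeR 4.0.16 (TMM factors, filterByExpr at counts of 10 per library and 15 in total, robust quasi-likelihood test, Benjamini-Hochberg adjusted p under 0.05): TDB over vehicle within each tissue, their difference over 12 libraries, and vehicle tumor over vehicle liver. Every adjusted p is over all genes tested, and fold changes are log2. DESeq2 1.42.0, limma 3.58.1, other scalings, no filter, a replicate block, a fit of all 12 libraries and leaving out each library were alternatives. The main edgeR fits were also run on simulated counts, with 1 spread for all genes and libraries of a fit and no length pattern. That check does not cover libraries as uneven as the liver ones. Genes were matched to GENCODE M21 (52489 of 52636 identifiers, and the 147 others held 0.0011% to 0.0064% of counts). CPM are counts over TMM-scaled library size.

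The 32 genes and the gene lists were chosen with earlier results of these data known. The genes given with every library are the sensors, the transcription factors, those past the threshold in liver or in the difference, and the 10 with the smallest adjusted p in tumor; from each list of other pathway genes, up to 3 with the smallest adjusted p in tumor are named, and Eif2ak2, Eif2ak1, Eif2ak4, Atf3, Creb3l3, Wars and P4hb in any case. Promoter windows are those of up to 5 genes with an element, by adjusted p in tumor. Hspa5, Hsp90b1, Asns, Casp12, Pycr1, Slc7a5 and the promoter of Derl3 were added after their values were seen. No pair of libraries of a group agreed within sampling noise. The labels name separate mice per treatment but tie no library to a mouse, so p-values measure the spread between these libraries.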

Additional observations from a re-analysis of the deposited data

Results flagged for a closer look

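The antibody effect on Derl3 differed between the tissues: the log2 fold change was lower in tumor than in liver by a difference of -2.44 (SE 0.52, adjusted p = 0.027, edgeR's quasi-likelihood interaction test, Benjamini-Hochberg). Within tumor its log2 fold change was 0.01, and within liver it was 2.40, where all 3 TDB libraries were above all 3 vehicle libraries. Derl3 was a low gene in vehicle livers, at 1.54 to 6.10 CPM. Its liver effect alone did not pass edgeR's quasi-likelihood test (adjusted p = 0.13). The difference between tissues did not pass in 6 of 21 alternatives, each with 1 library left out (adjusted p up to 0.089). The interaction fit shares 1 estimate of spread between the tissues, 24.6% as a coefficient of variation, against 32.3% in liver alone. The spread of liver values may thus be understated in it.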

How the results depend on the processing

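Total count scaling was chosen after seeing the data. In liver, the number of genes called higher was 1 without a filter, 2 with DESeq2, 1 in the fit of all 12 libraries and 0 to 1 when a library was left out. In tumor, the number called higher was 5 with total counts, 5 and 5 with FPKM plus 1 and plus 0.1, 0 in the fit of all 12 libraries, 11 with DESeq2, 11 without a filter, 9 with limma-voom and 6 to 10 without single libraries. The number called lower in tumor was 4 with upper quartile scaling, 4 with total counts, 0 in the fit of all 12 libraries and 1 to 2 without single libraries. That fit shares 1 estimate of spread with liver libraries, 24.6% as a coefficient of variation against 13.0% in tumor alone. For the difference of effects, 0 to 2 genes were called lower without single libraries. The labels do not pair samples by library number. Deviations of same-numbered TDB and vehicle libraries correlated at -0.11, 0.49 and 0.63 in liver and at 0.07, 0.02 and 0.29 in tumor. Between tumor and liver they correlated at 0.03, 0.03 and 0.10 for TDB and at -0.03, -0.06 and 0.09 for vehicle. With library number as a replicate block, 4 genes were called higher in liver (Hsp90b1, Hyou1, Derl3 and Syvn1). Over all genes that block called 291 higher and 59 lower in liver, against 70 and 3 in the main fit. In tumor, 8 of the 32 genes were called higher and 2 lower with the block, against 2525 and 2097 of 15454 genes. In vehicle tumor over vehicle liver, total counts gave 16 higher and 7 lower, and turned the direction of the median (0.64) and of Ern1 (0.080), Atf6 (0.94), Atf4 (0.24), Ddit3 (0.88), Hspa5 (0.63), Hyou1 (0.64), Pdia3 (1.20), Pdia4 (0.71), Pdia6 (1.11), Calr (0.42), Canx (0.98), Ppp1r15a (1.01) and Chac1 (0.88), 13 genes in all. The cause of these shifts was not tested, except that the scalings move the median of all genes by 1.33 on the log2 scale. Of 512 single-gene values in liver 503 stayed on their side of the threshold with no called direction turned, of 512 in tumor 468, of 672 for the difference 665 and of 512 between tissues 467. In liver 0 of the genes passed in the main fit, so staying there means only not passing again, and is no measure of stability. Signs that turned without a call were not counted: in liver Ern1 ran from -0.61 to 0.77 and Eif2ak3 from -0.21 to 0.79.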

Other observations

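Within the list of other ATF4 pathway genes, 2 groups of enzymes are given as a description. They were chosen after their values were seen, so their contrast is no test. Of 12 cytosolic aminoacyl-tRNA synthetases, which load tRNAs with amino acids, 6 rose, Aars, Cars, Eprs, Lars, Wars and Yars, and 1 fell, Sars, with a median log2 fold change of 0.23, beside 15.8% of all genes called higher and 13.1% lower. Apart from Wars, the rises ran from 0.28 (Lars, adjusted p = 0.016) to 0.50 (Aars, adjusted p = 0.011) in edgeR's quasi-likelihood test. Of 7 enzymes of serine, glycine and proline synthesis 0 rose and 4 fell, with a median of -0.39: Psat1 by a log2 fold change of -0.28 (adjusted p = 0.037), Shmt2 by -0.34 (adjusted p = 0.015), Psph by -0.41 (adjusted p = 0.013) and Pycr1 by -0.72 (adjusted p = 0.0029). In liver Wars was the 1 synthetase of 12 that passed, and 0 of the 4 synthesis enzymes tested there did.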
